A study of Mus musculus with 9 samples.

Results

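The genes described here encode extracellular proteases and their inhibitors. They were chosen by name as matrix metalloproteinases (MMPs), ADAM and ADAMTS proteases, tissue inhibitors of metalloproteinases, plasminogen activators with their receptor, and serpins. The list held 40 genes, of which 39 had a row among the 19044 genes of the deposited table. The RNA of Adamts20, which had no row, was not analysed, and this gene enters only the counts of promoter windows. They were measured by RNA sequencing in 3 mouse cell lines with 3 libraries each. The lines derive from a skin squamous cell carcinoma (SCC) that arose under a 2-stage chemical protocol (DMBA, then TPA) in FVB mice with the K14CreER transgene, a tamoxifen-inducible Cre under the keratin 14 promoter, and floxed alleles of Ptk2, the gene of focal adhesion kinase (FAK). In the FAK-/- line, FAK had been deleted in culture with 4-hydroxytamoxifen. The FAK-WT and FAK-kd lines carry the same deletion and express wild-type FAK or a kinase-deficient FAK from a retrovirus, under hygromycin selection, in a FAK-/- clone. Each group is therefore 1 line derived from 1 clone, and a difference between lines cannot be told apart from drift of a line. The sources used here do not say whether FAK-/- cells carried an empty vector.

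Proteases outside the cell cut collagens, proteoglycans and adhesion molecules, and release growth factors and receptors from the cell surface. MMPs and ADAMTS enzymes act mainly on the matrix, and ADAM enzymes act as sheddases of membrane proteins. Both are held in check by TIMPs, which block the active site, and urokinase (Plau), bound to its receptor Plaur, turns plasminogen into plasmin, a protease that can also activate MMP zymogens. FAK sits at integrin adhesions, where cells contact that matrix, and FAK-dependent proteolysis has long been studied in carcinoma invasion.

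Library totals ran from 25304994 to 37264636 counts in 8 libraries. FAK-WT replicate 1 held 779755, which was 2.31% of the median of the others, so 3 counts amounted to 3.78 CPM in that library (CPM being a gene's count scaled to a common library total with TMM factors, the unit used below) and at most 0.118 CPM elsewhere. FAK-/- replicate 3 stood apart by base composition, with a Spearman correlation of 0.61 between gene deviation and GC content across genes, against −0.20 to −0.05 in the other libraries. Ptk2 was measured at 213, 216 and 216 CPM in the FAK-WT libraries, 21.8, 23.5 and 19.6 in the FAK-/- libraries and 155, 158 and 176 in the FAK-kd libraries, so the FAK-WT and FAK-kd libraries carried more Ptk2 RNA than the FAK-/- libraries, as labelled. The markers did not match a squamous epithelium in full. Of 14 keratinocyte markers, Krt17, Trp63 and Epcam had no row and 8 of the other 11 had a mean below 1 CPM. Among these 8 were Krt5, Krt14, Krt18, Cdh1, Dsp, Perp and Sfn, while Itga6 and Itgb4 were present. The summed keratinocyte markers, mostly Itga6 and Itgb4, were 229 to 244 CPM in FAK-WT, 366 to 387 in FAK-/- and 350 to 357 in FAK-kd. Of 9 fibroblast markers, Lum had no row and 3 of the other 8 had a mean below 1 CPM, namely Dcn, Thy1 and Fbln1. Col1a1 reached at most 1.64 CPM, while Col3a1 lay between 1287 and 1913 CPM. The summed leukocyte markers were 2.52 to 9.31 CPM in FAK-WT, 14.2 to 19.0 in FAK-/- and 14.8 to 17.1 in FAK-kd, nearly all from Cd14 and Cd68, with Lyz2, Csf1r, Itgam and Fcer1g at or near 0. The summed fibroblast markers, mostly Col3a1, overlapped between lines, at 1605 to 1701 CPM in FAK-WT, 1345 to 1630 in FAK-/- and 1409 to 1988 in FAK-kd. Pdgfrb of that list lay at 3.78 to 6.87 CPM in FAK-WT, 25.1 to 26.2 in FAK-/- and 24.97 to 38.9 in FAK-kd. Col1a2 of the same list went the other way against FAK-/-, at 3.72 to 6.29 CPM in FAK-WT, 1.68 to 3.65 in FAK-/- and 5.55 to 7.16 in FAK-kd. The part of these differences in the results below was not tested. In such bulk samples, fewer cells of a type and less RNA per cell cannot be told apart.

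Of the 39 genes, 24 had a mean of at least 1 CPM over the 9 libraries, 14 had at least 10 CPM and 15 stayed below 1 CPM. The 39 genes lie on 17 chromosomes. In the shallow FAK-WT replicate 1, 14 of them had 0 counts and 18 fell below 3 counts. Timp2 and Timp1 RNA stood above all protease RNA when levels were compared per kilobase of transcript, while Timp3, Reck and the serpins lay far below the leading proteases. Timp2 was the highest of all, at 272 ± 3.70 (SD, n = 3) CPM per kb in FAK-WT, against 299 ± 18.1 in FAK-/- and 295 ± 8.07 in FAK-kd. Timp1 followed at 234 ± 10.4, 169.8 ± 1.30 and 204 ± 24.2. Among proteases the sheddase Adam10 led, with 71.6 ± 3.27, 60.2 ± 10.6 and 75.6 ± 4.17 CPM per kb, followed in FAK-/- by the membrane collagenase Mmp14 with 51.6 ± 7.72. On this scale the libraries of Timp1 and Timp2 did not overlap in any line. Those of Adam10 and Mmp14 overlapped in FAK-/-, where replicate 3 was the lowest for Adam10 and the highest for Mmp14.

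**Figure D1:**
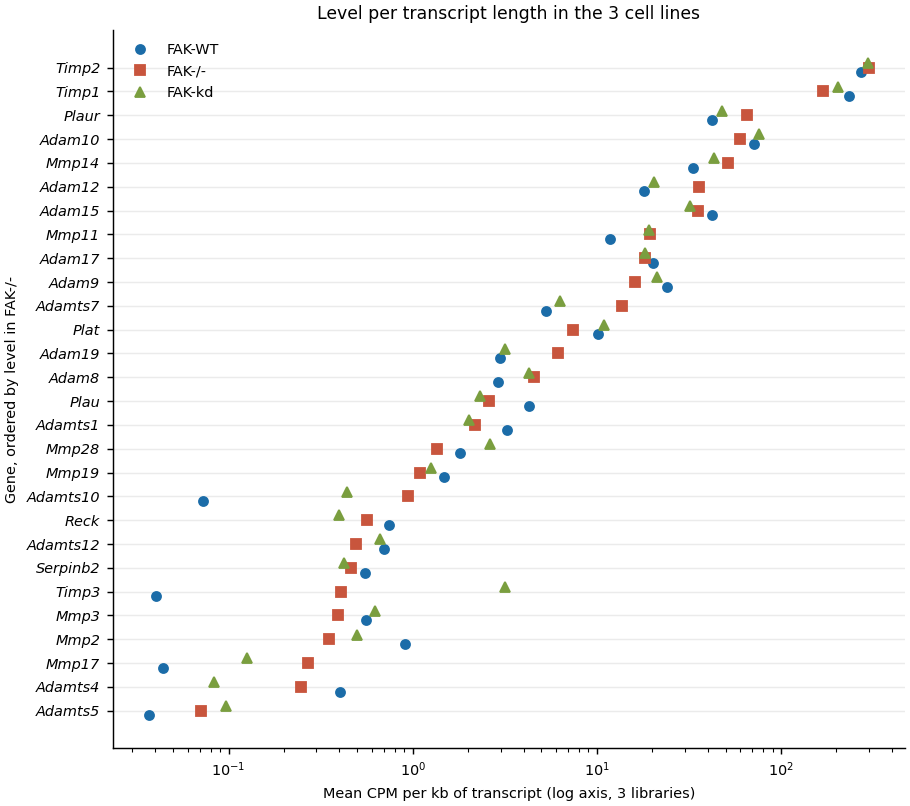
Mean CPM per kb of transcript (horizontal log axis, 3 libraries a mean) of the 28 genes with a mean of at least 1 CPM in a line, ordered by their level in FAK-/-. Circles, squares and triangles stand for FAK-WT, FAK-/- and FAK-kd. Timp2 and Timp1 lead in all 3 lines, and Timp3, Adamts10 and Mmp17 show the widest gaps, with Timp3 at 0.0402 in FAK-WT and 3.17 in FAK-kd.

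**Figure D2:**
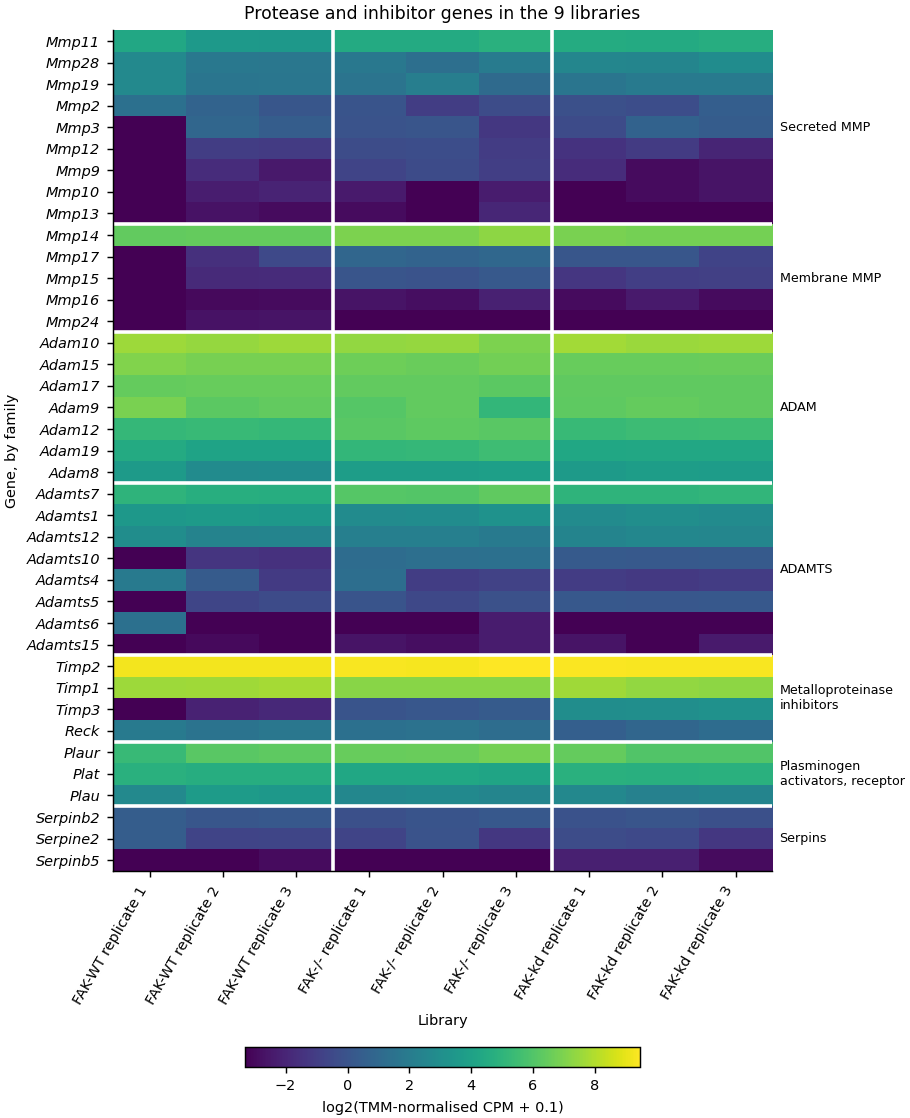
Heat map of log2(CPM + 0.1) for the 39 genes (rows, by family and level) in the 9 libraries (columns). Dark cells of the leftmost column include the 14 genes with 0 counts in FAK-WT replicate 1, and the brightest rows are Timp2, Adam10 and Timp1, which are bright in all lines.

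The first question was which of these genes differ between cells with wild-type FAK and cells without FAK. Differences were called at an adjusted p of 0.05 or below with a change of at least 2-fold, from edgeR's quasi-likelihood test with Benjamini-Hochberg adjustment over all 19044 genes. In FAK-WT against FAK-/-, none of the 39 genes was called higher, where 2.32% of all genes were. At an unadjusted p under 0.05, 3 genes were at least 2-fold higher, and DESeq2, which tested 33 of the 39, also called none. Lower calls fell on 6 genes, or 15.4%, where 3.06% of all genes were called lower, namely Mmp15, Mmp17, Adam19, Adamts7, Adamts10 and Timp3. At an adjusted p of 0.05 or below with no limit on the fold, 5 genes were higher (12.8%, against 8.01% of all genes). These were Adam15, Adamts1, Timp1, Plau and Plat. In the other direction 11 were lower (28.2%, against 9.96%), which were the 6 above with Mmp11, Mmp14, Adam8, Adam12 and Plaur. The median log2 fold change of the 39 genes was −0.01, beside 0 for all genes. Without FAK-WT replicate 1 the lower calls numbered 7 and without FAK-/- replicate 3 also 7, with none higher in either case.

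The second question was what wild-type FAK changes against a FAK that lacks kinase activity. In FAK-WT against FAK-kd, 1 gene was higher past 2-fold, Plau (2.56%, against 2.37% of all genes). Lower were 2, Adamts10 and Timp3 (5.13%, against 2.89%). With no limit on the fold, 4 were higher (10.3%, against 7.58%), namely Adam15, Adamts1, Plau and Reck. In the other direction 7 were lower (17.9%, against 10.2%), namely Mmp11, Mmp14, Mmp28, Adam8, Adamts7, Adamts10 and Timp3. The shares of higher genes were near those of all genes. The median log2 fold change was −0.07, beside 0 for all genes. Without FAK-WT replicate 1 the calls were 1 higher and 3 lower, and without FAK-/- replicate 3 they were 1 and 2.

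The third comparison set kinase-deficient FAK against no FAK. In FAK-kd against FAK-/-, 1 gene was higher, Timp3 (2.56%, against 0.914% of all genes). Lower were 4, Mmp9, Mmp15, Adamts7 and Adamts10 (10.3%, against 1.09%). With no limit on the fold, 3 were higher (7.69%, against 3.97%), namely Mmp28, Timp3 and Plat, and 6 were lower (15.4%, against 3.88%), which were the 4 above with Adam12 and Adam19. The median log2 fold change was −0.12, or −0.10 with genes at 0 in a line set to the bound that 3 counts allow. Without FAK-WT replicate 1 the calls were 1 higher and 4 lower, and without FAK-/- replicate 3 they were 2 and 4. They fell to 1 higher and 1 lower without FAK-kd replicate 3 and with DESeq2, to 2 and 1 without FAK-kd replicate 2, and to 1 and 2 without FAK-/- replicate 2. Over all genes the calls were 174 higher and 208 lower on all 9 libraries. There they were 128 and 134 without FAK-kd replicate 3, 139 and 145 without FAK-kd replicate 2, and 160 and 207 without FAK-/- replicate 2. DESeq2 called 135 and 127 of the 12372 genes it tested, among them 33 of the 39. The comparisons share their libraries in pairs, so their counts are not independent of each other.

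**Figure D3:**
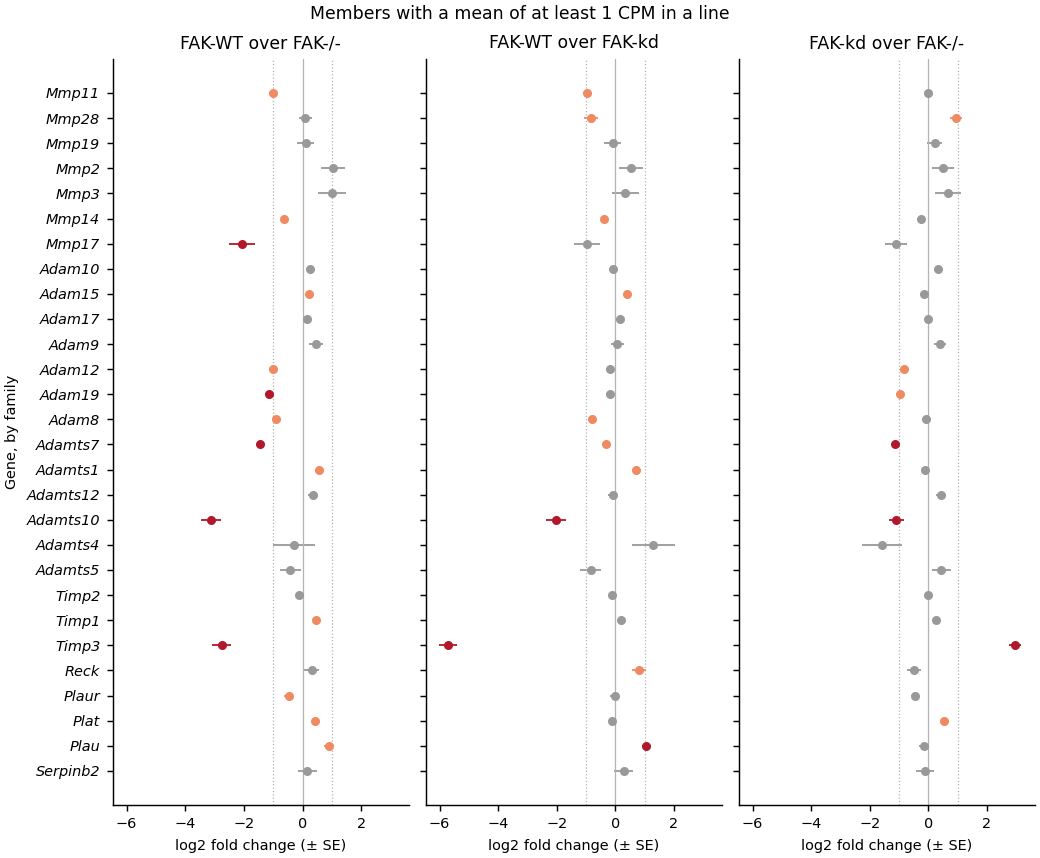
The log2 fold change with its SE (horizontal axis) of the 28 genes with a mean of at least 1 CPM in a line, in the 3 comparisons (panels). Dark red marks genes past both limits, orange an adjusted p of 0.05 or below with a smaller fold, grey neither, and dotted lines the 2-fold limits. Timp3 is the farthest point in the middle and right panels, at −5.70 and 2.95, and Adamts10 in the left one at −3.13.

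Among the inhibitors, Timp3 differed in all 3 comparisons. TIMP-3 is the tissue inhibitor that stays bound to the matrix and blocks ADAM and ADAMTS enzymes besides MMPs. Timp3 (ENSMUSG00000020044, chromosome 10, 86300372 to 86349506, plus strand on GRCm38) lay at 0, 0.133 and 0.173 CPM in the FAK-WT libraries, 0.899, 1.03 and 1.18 in the FAK-/- libraries and 7.53, 7.85 and 8.78 in the FAK-kd libraries. The 3 groups of libraries did not overlap, FAK-kd was highest and FAK-WT lowest, with 0, 5 and 6 counts in its libraries. FAK-WT differed from FAK-/- by a log2 fold change of −2.75 (SE 0.33, adjusted p = 2.09e-05) and from FAK-kd by a log2 fold change of −5.70 (SE 0.31, adjusted p = 4.69e-09), the latter a 52.1-fold lower level. FAK-kd exceeded FAK-/- by a log2 fold change of 2.95 (SE 0.21, adjusted p = 3.75e-07), or 7.75-fold. Leaving out 1 library at a time kept these log2 fold changes at −2.95 to −2.58, −5.90 to −5.53 and 2.85 to 3.07. In FAK-WT replicate 1, 3 counts amount to 3.78 CPM, so its 0 counts could not show the difference from FAK-/-.

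Timp3 lies inside an intron of Syn3, a neuronal synapsin gene on the opposite strand, and the libraries were not strand-specific. Of its 31-base words, 21.9% also occur in other transcripts, mostly of Syn3. Syn3 itself lay at 0 to 0.210 CPM in FAK-kd, 0.118 to 0.224 in FAK-/- and 0.160 to 1.26 in FAK-WT, and did not pass the test in any comparison. It was thus not high where Timp3 was high. Since Timp3 had the largest called difference, its promoter is shown, from RefSeq on GRCm38.p6, from base −250 to base −51 before the RefSeq start (chr10:86300162-86300361, plus strand, 5′ to 3′).
Timp3: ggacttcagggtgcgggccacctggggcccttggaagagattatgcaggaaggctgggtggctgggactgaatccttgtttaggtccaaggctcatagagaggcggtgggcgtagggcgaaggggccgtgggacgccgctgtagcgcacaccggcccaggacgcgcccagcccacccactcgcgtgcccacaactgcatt
This stretch has a GC content of 65.5% and 13 CpG pairs. The letters TGANTCA (AP-1), TGACGTCA (CRE) and AGGAAG (ETS) were searched on both strands of the whole 300-base window, and the window held 1 match, to the ETS letters, at position −204. Of all 32851 RefSeq promoter windows, 7.81% held the AP-1 letters, 1.79% the CRE letters and 35.4% the ETS letters. A match of letters is a description and not evidence of binding.

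The abundant inhibitors differed less. Timp1, whose protein also acts as a growth factor, lay at 194, 198 and 211 CPM in the FAK-WT libraries, 145, 145 and 147 in the FAK-/- libraries and 199, 167 and 159.7 in the FAK-kd libraries. The FAK-WT libraries lay above all FAK-/- libraries, with a log2 fold change of 0.47 (SE 0.08, adjusted p = 0.000765), and overlapped with FAK-kd. Timp2, whose protein takes part in the activation of MMP-2 by MMP-14, ranged from 596 to 708 CPM and passed no test on all 9 libraries, with an adjusted p of 0.0444 for FAK-WT over FAK-kd without FAK-/- replicate 3. Reck, a membrane-anchored MMP inhibitor, lay at 3.78, 2.82 and 3.29 CPM in the FAK-WT libraries, 2.55, 2.68 and 2.27 in the FAK-/- libraries and 1.38, 1.74 and 2.20 in the FAK-kd libraries, and was higher in FAK-WT than in FAK-kd with a log2 fold change of 0.81 (SE 0.25, adjusted p = 0.0355). That adjusted p stayed at 0.05 or below in 5 of the 9 fits that leave out a library. Summed per kb, Timp1, Timp2 and Timp3 reached 507 ± 7.23 CPM per kb in FAK-WT, against 469 ± 19.4 in FAK-/- and 503 ± 31.3 in FAK-kd (SD, n = 3). Timp3 made up 0.00790% of that sum in FAK-WT, against 0.0868% in FAK-/- and 0.634% in FAK-kd. Its large relative difference was therefore a small part of the summed inhibitor RNA.

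**Figure D4:**
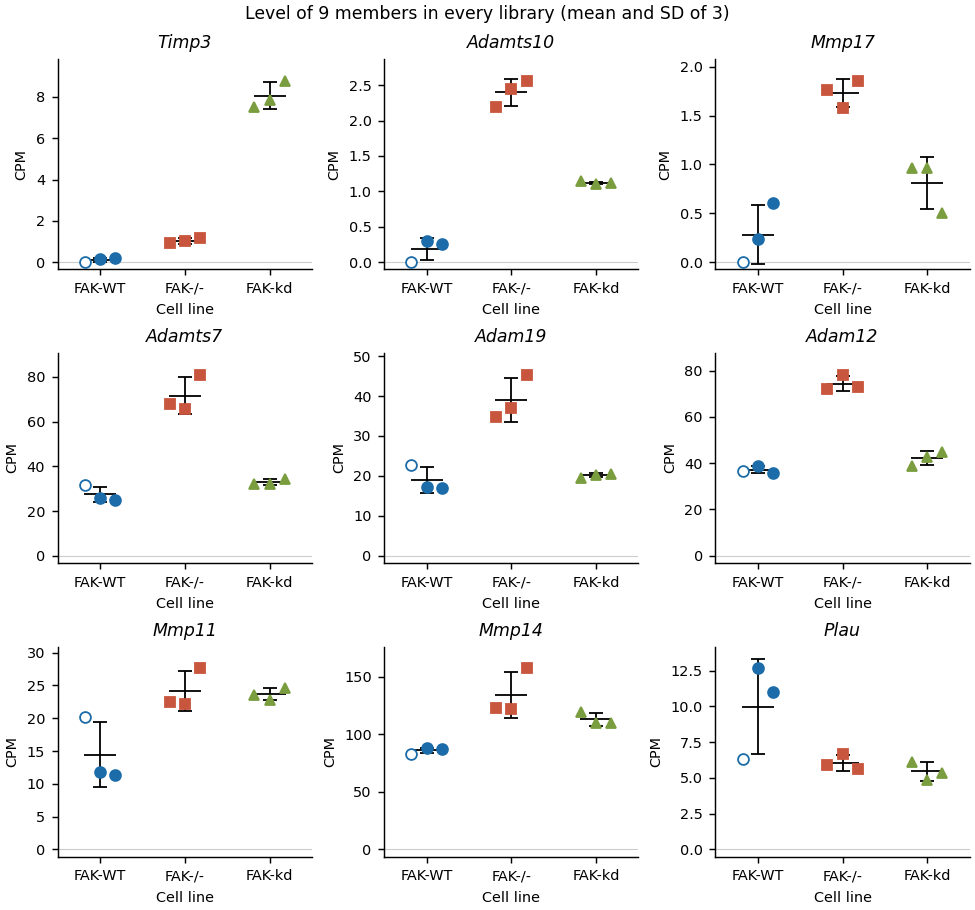
CPM (vertical axes, from 0) of 9 genes in every library of the 3 lines, with the mean and SD of 3 libraries as black bars and FAK-WT replicate 1, the shallow library, as an open circle. Timp3 is highest in FAK-kd, Adamts7, Adam19 and Adam12 are highest in FAK-/- with FAK-kd near FAK-WT, and Mmp11 is lowest in FAK-WT.

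The largest called difference among the proteases was that of Adamts10 (ENSMUSG00000024299, chromosome 17, 33524204 to 33553782, plus strand), which encodes an ADAMTS protease linked to fibrillin microfibrils. It lay at 0, 0.293 and 0.260 CPM in the FAK-WT libraries, 2.19, 2.44 and 2.56 in the FAK-/- libraries and 1.14, 1.11 and 1.11 in the FAK-kd libraries. The lines did not overlap and followed the order FAK-WT, FAK-kd, FAK-/-. FAK-WT was below FAK-/- by a log2 fold change of −3.13 (SE 0.34, adjusted p = 9.12e-06) and below FAK-kd by a log2 fold change of −2.03 (SE 0.34, adjusted p = 0.000539). FAK-kd was below FAK-/- by a log2 fold change of −1.09 (SE 0.26, adjusted p = 0.0169). Of these calls that of FAK-kd over FAK-/- is the least firm. With DESeq2 its adjusted p was 0.0775, and it was lost in 2 of the 9 fits that leave out a library, those without FAK-kd replicate 2 or 3. The levels are low, and FAK-WT replicate 1 had 0 counts.

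Adamts7 (ENSMUSG00000032363, chromosome 9, 90163069 to 90208071, plus strand), a protease known for cutting the cartilage protein COMP, was the highest ADAMTS gene. It lay at 31.5, 25.9 and 25.1 CPM in the FAK-WT libraries, 68.1, 65.6 and 81.1 in the FAK-/- libraries and 32.1, 32.1 and 34.4 in the FAK-kd libraries. Every FAK-/- library lay above every library of the other lines. FAK-WT was 2.74-fold lower than FAK-/-, with a log2 fold change of −1.46 (SE 0.11, adjusted p = 1.63e-07), and FAK-kd was 2.18-fold lower, with a log2 fold change of −1.12 (SE 0.10, adjusted p = 3.42e-06). FAK-WT and FAK-kd differed far less, with a log2 fold change of −0.33 (SE 0.11, adjusted p = 0.0431), and that adjusted p stayed at 0.05 or below in 3 of 9 fits that leave out a library. Per kb, the ADAMTS genes summed to 9.87 ± 1.32 CPM in FAK-WT, against 17.7 ± 1.82 in FAK-/- and 9.62 ± 0.232 in FAK-kd, of which Adamts7 made up 53.4%, 77.5% and 65.4%. Adamts1, a proteoglycan-cutting member, went the other way, with 11.3, 12.3 and 11.4 CPM in the FAK-WT libraries, 7.16, 7.41 and 9.12 in the FAK-/- libraries and 7.02, 7.88 and 6.997 in the FAK-kd libraries. It was higher in FAK-WT than in FAK-/- with a log2 fold change of 0.58 (SE 0.14, adjusted p = 0.00738) and than in FAK-kd with a log2 fold change of 0.69 (SE 0.14, adjusted p = 0.00192). The aggrecanases Adamts4 and Adamts5, with Adamts6, Adamts12 and Adamts15, passed no test with edgeR on all 9 libraries or with DESeq2, which tested 4 of the 5. Without FAK-/- replicate 3, Adamts4 was called lower in FAK-kd than in FAK-/-, at −1.95 with an adjusted p of 0.0367. At an unadjusted p under 0.05, 1 was lower in FAK-WT than in FAK-kd, and 1 was higher and 1 lower in FAK-kd than in FAK-/-. Among them Adamts12 was highest at 3.75 to 7.55 CPM. Adamts4 ranged from 0.330 to 3.78 CPM, with FAK-/- replicate 1 at 2.40 beside 0.394 and 0.480 in the other FAK-/- libraries.

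Among the ADAM sheddases, 7 of 7 genes exceeded 10 CPM on average. Adam19 (ENSMUSG00000011256, chromosome 11, 46055992 to 46147343, plus strand), a sheddase of neuregulins, lay at 22.7, 17.2 and 17.1 CPM in the FAK-WT libraries, 34.8, 36.9 and 45.4 in the FAK-/- libraries and 19.5, 20.3 and 20.6 in the FAK-kd libraries. The FAK-/- libraries stood above all others, and FAK-WT and FAK-kd overlapped. FAK-WT was 2.22-fold below FAK-/-, with a log2 fold change of −1.15 (SE 0.12, adjusted p = 6.28e-06). FAK-kd was below FAK-/- by a log2 fold change of −0.96 (SE 0.11, adjusted p = 4.57e-05), just short of the 2-fold limit, and FAK-WT and FAK-kd gave −0.20 (SE 0.12, adjusted p = 0.32). Adam12, which encodes a sheddase of heparin-binding EGF-like growth factor, had the same order and is given for that reason, after its values were seen. It lay at 36.5, 38.9 and 36.0 CPM in the FAK-WT libraries, 72.2, 78.3 and 72.8 in the FAK-/- libraries and 39.0, 42.8 and 45.1 in the FAK-kd libraries. FAK-/- was again above every other library. The log2 fold changes were −0.99 (SE 0.09, adjusted p = 1.22e-06) for FAK-WT and −0.82 (SE 0.08, adjusted p = 1.42e-05) for FAK-kd, each over FAK-/-. Without FAK-/- replicate 3 the former was −1.01, past 2-fold.

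Adam8 showed another order. Its protein is a sheddase best known from leukocytes. It lay at 12.6, 7.21 and 7.35 CPM in the FAK-WT libraries, 13.7, 14.0 and 14.9 in the FAK-/- libraries and 12.3, 14.0 and 13.5 in the FAK-kd libraries. FAK-WT replicates 2 and 3 were below all other libraries, and FAK-WT replicate 1, with 10 counts and a 95% Poisson interval of 6.04 to 23.2 CPM, fell among the FAK-kd values (such intervals cover counting error only). Adam8 was lower in FAK-WT than in FAK-/- with a log2 fold change of −0.91 (SE 0.13, adjusted p = 0.000133) and than in FAK-kd with a log2 fold change of −0.81 (SE 0.13, adjusted p = 0.000345). FAK-kd over FAK-/- gave −0.10 (SE 0.11). The summed leukocyte markers were also lowest in FAK-WT, as given above, while Lyz2, Csf1r and Itgam were at or near 0 in every line. Adam15 was higher in FAK-WT than in FAK-kd with a log2 fold change of 0.38 (SE 0.08, adjusted p = 0.00203), at 115 to 131 CPM against 89.0 to 93.3. Its difference from FAK-/-, 0.24 (SE 0.08, adjusted p = 0.041), kept that side of 0.05 in only 2 of 9 fits that leave out a library.

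The main sheddases of cytokines and of Notch, with Adam9, passed no test with edgeR on all 9 libraries. Adam10 reached an adjusted p of 0.05 or below in FAK-kd over FAK-/- with DESeq2, without FAK-/- replicate 3 and with GC-content offsets, and Adam17 in FAK-WT over FAK-kd in the latter pair of settings. Adam10, the highest ADAM gene, lay at 193, 177 and 190.5 CPM in the FAK-WT libraries, 169.5, 176 and 125 in the FAK-/- libraries and 209, 187 and 195 in the FAK-kd libraries. FAK-/- replicate 3 was the lowest of all. Adam17, the TNF sheddase, ranged from 76.0 to 90.7 CPM. Adam9 ranged from 35.9 to 121 CPM, with its lowest value again in FAK-/- replicate 3 and its highest in FAK-WT replicate 1. The ADAM genes summed per kb to 182 ± 12.5 CPM in FAK-WT, against 177 ± 15.3 in FAK-/- and 175 ± 2.29 in FAK-kd, which overlapped. The lower Adam12 and Adam19 levels of FAK-WT and FAK-kd were thus not seen in the family's sum.

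Of the 5 membrane-anchored MMP genes, Mmp14, Mmp15 and Mmp17 were lower in FAK-WT than in FAK-/-. Mmp14, the membrane-type collagenase that activates pro-MMP-2 at the cell surface, made up 99.7%, 99.0% and 99.4% of the family's summed level per kb in FAK-WT, FAK-/- and FAK-kd. It lay at 83.1, 87.7 and 87.0 CPM in the FAK-WT libraries, 123, 122 and 157 in the FAK-/- libraries and 119.5, 109.8 and 109.8 in the FAK-kd libraries. No library of FAK-WT reached those of the other lines. FAK-WT was below FAK-/- with a log2 fold change of −0.63 (SE 0.10, adjusted p = 0.00023) and below FAK-kd with a log2 fold change of −0.38 (SE 0.10, adjusted p = 0.0102). The former held in 9 of 9 fits that leave out a library and the latter in 6 of 9. Both stayed within 2-fold. FAK-kd lay below FAK-/- in every library, at −0.25 (SE 0.09, adjusted p = 0.116).

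Mmp17 (ENSMUSG00000029436, chromosome 5, 129584169 to 129611099, plus strand), a membrane MMP held by a GPI anchor, lay at 0, 0.240 and 0.606 CPM in the FAK-WT libraries, 1.77, 1.58 and 1.86 in the FAK-/- libraries and 0.959, 0.959 and 0.498 in the FAK-kd libraries. FAK-/- was above every other library. FAK-WT was below FAK-/- with a log2 fold change of −2.08 (SE 0.44, adjusted p = 0.00346), which rested on 0, 9 and 21 counts in FAK-WT. Without FAK-WT replicate 2 its adjusted p was 0.0634. Mmp15, another membrane MMP, reached at most 1.09 CPM, at 0 to 0.202 CPM in FAK-WT, 0.867 to 1.09 in FAK-/- and 0.2998 to 0.439 in FAK-kd. Its difference between FAK-WT and FAK-/- was −2.32 (SE 0.44, adjusted p = 0.00142). That between FAK-kd and FAK-/- was −1.31 (SE 0.36, adjusted p = 0.0348) and was lost with DESeq2 (adjusted p = 0.221) and in 8 of 9 fits that leave out a library. Mmp16 reached at most 0.128 CPM and passed no test. Mmp24 was counted only in FAK-WT, at up to 0.0577 CPM, which is under the floor of 3 counts, and was not called either.

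Of the secreted MMPs, Mmp11 was by far the most abundant. It encodes stromelysin-3, which leaves the cell already activated by furin and is usually made by stromal fibroblasts in carcinomas. It lay at 20.1, 11.9 and 11.4 CPM in the FAK-WT libraries, 22.5, 22.2 and 27.6 in the FAK-/- libraries and 23.5, 22.8 and 24.6 in the FAK-kd libraries. FAK-WT libraries were below all others, and FAK-WT replicate 1 was the highest of them, with 16 counts and a 95% Poisson interval of 11.5 to 32.7 CPM. FAK-WT was below FAK-/- with a log2 fold change of −0.99 (SE 0.14, adjusted p = 8.46e-05) and below FAK-kd with a log2 fold change of −0.96 (SE 0.14, adjusted p = 0.000104). Without FAK-WT replicate 1 these became −1.05 and −1.02 and both passed the 2-fold limit. FAK-kd and FAK-/- overlapped, at −0.03 (SE 0.12, adjusted p = 0.961). Mmp11 and Adam8 thus had lower values in FAK-WT than in both other lines, whereas Adamts7, Adam19 and Adam12 had FAK-kd values near those of FAK-WT.

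To show the sequence upstream of these 2 genes with the same order, bases −250 to −51 are given for Mmp11 (chr10:75932553-75932752, minus strand) and Adam8 (chr7:139992613-139992812, minus strand), 5′ to 3′.
Mmp11: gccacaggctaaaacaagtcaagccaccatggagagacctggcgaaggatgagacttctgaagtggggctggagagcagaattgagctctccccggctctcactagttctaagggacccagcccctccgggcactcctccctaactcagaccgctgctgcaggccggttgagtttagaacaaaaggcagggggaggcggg
Adam8: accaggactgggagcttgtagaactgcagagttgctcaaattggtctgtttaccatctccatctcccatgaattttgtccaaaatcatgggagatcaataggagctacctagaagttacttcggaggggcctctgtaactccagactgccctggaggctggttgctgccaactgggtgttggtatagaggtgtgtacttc
Their GC contents were 59.0% and 49.0%, with 6 CpG pairs and 1. Neither 300-base window held the AP-1, CRE or ETS letters.

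Mmp28, which encodes epilysin, an MMP of keratinocytes, was highest in FAK-kd. It lay at 6.29, 3.33 and 3.32 CPM in the FAK-WT libraries, 3.39, 2.44 and 3.91 in the FAK-/- libraries and 5.85, 5.54 and 7.32 in the FAK-kd libraries. FAK-kd exceeded every FAK-/- library, with a log2 fold change of 0.94 (SE 0.21, adjusted p = 0.0117), and its adjusted p stayed at 0.05 or below in 8 of 9 fits that leave out a library. Without FAK-/- replicate 3 it was 1.09 and past 2-fold. Against FAK-WT the difference was −0.84 (SE 0.23, adjusted p = 0.02), and the lines overlapped through FAK-WT replicate 1, which had 5 counts. That difference held in 6 of 9 such fits, and with DESeq2 its adjusted p was 0.0502. Mmp19 ranged from 2.02 to 6.29 CPM and passed no test. The gelatinase Mmp2 ranged from 0.394 to 2.52 CPM and also passed none, with an unadjusted p under 0.05 only for its higher level in FAK-WT over FAK-/-. The other gelatinase, Mmp9, lay at 0 to 0.213 CPM in FAK-WT, 0.416 to 0.670 in FAK-/- and 0.0300 to 0.210 in FAK-kd. Its FAK-kd over FAK-/- call, −2.37 (SE 0.62, adjusted p = 0.0294), was lost with DESeq2 (adjusted p = 0.151) and in 4 of 9 fits that leave out a library.

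The listed MMP genes that lie side by side on chromosome 9 had low levels. Mmp13, Mmp12, Mmp3 and Mmp10 lie in this order between 7272514 and 7510240 on the plus strand. Mmp3 reached at most 1.76 CPM, Mmp12 at most 0.710, Mmp13 at most 0.160 and Mmp10 at most 0.144, and none passed edgeR's test, or DESeq2, which tested 2 of the 4, in any comparison. At an unadjusted p under 0.05, Mmp3 was higher in FAK-WT than in FAK-/-, and Mmp12 and Mmp13 were lower in FAK-kd than in FAK-/-. Mmp3 and Mmp10 share 14.6% and 11.9% of their 31-base words with other transcripts, Mmp3 mostly with Mmp10, so their counts are partly exchangeable. These genes are known as targets of AP-1 in wounded skin and tumours. Their upstream bases −110 to −11 are shown with those of Plaur and Serpinb2, since all hold the AP-1 letters, which are in capitals. They are Mmp3 (chr9:7445712-7445811), Mmp10 (chr9:7502232-7502331), Mmp13 (chr9:7272404-7272503), Plaur (chr7:24462373-24462472) and Serpinb2 (chr1:107511313-107511412), all on the plus strand.
Mmp3: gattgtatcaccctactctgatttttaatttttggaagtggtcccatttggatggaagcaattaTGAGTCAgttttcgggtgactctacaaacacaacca
Mmp10: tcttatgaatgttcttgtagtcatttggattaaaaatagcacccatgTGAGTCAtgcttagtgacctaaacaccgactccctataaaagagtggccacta
Mmp13: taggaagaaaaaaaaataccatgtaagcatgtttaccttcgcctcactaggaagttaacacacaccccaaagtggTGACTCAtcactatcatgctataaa
Plaur: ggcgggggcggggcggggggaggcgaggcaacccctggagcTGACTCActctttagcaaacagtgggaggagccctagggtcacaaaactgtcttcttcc
Serpinb2: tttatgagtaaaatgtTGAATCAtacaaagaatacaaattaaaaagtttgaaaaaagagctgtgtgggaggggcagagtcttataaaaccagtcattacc
The matches begin at positions −46, −63, −35, −69 and −94 before the RefSeq start. None of them overlaps a match to the ETS letters. Of the 29 windows of 25 listed genes with an entry, Adamts20 included, 9 windows of 8 genes held the AP-1 letters, or 31.03%, beside 7.81% of all windows. The others were Serpinb5, Mmp12 and Adam19, with Mmp12 and Adam19 each matched in only 1 of their windows. No window was shown or counted for Adamts4, Adamts5, Adamts6, Adamts7, Adamts10, Adamts15, Adam9, Adam12, Mmp2, Mmp9, Mmp16, Mmp17, Mmp19, Plat or Plau. The ETS letters occurred in 44.83% of the windows and the CRE letters in none. None of the genes with the AP-1 letters except Adam19 and Plaur passed the test in any comparison. Windows of Mmp3, Mmp10, Mmp12 and Mmp13 come from neighbouring, related genes and are not independent. The Serpinb2 windows overlap and hold the same AP-1 match, which was counted in each of them.

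The plasminogen activators were higher in FAK-WT than in FAK-/-. Plau (ENSMUSG00000021822, chromosome 14, 20836660 to 20843385, plus strand), the urokinase gene, lay at 6.29, 12.7 and 11.02 CPM in the FAK-WT libraries, 5.87, 6.70 and 5.60 in the FAK-/- libraries and 6.15, 4.85 and 5.36 in the FAK-kd libraries. FAK-WT replicates 2 and 3 were above all other libraries, while FAK-WT replicate 1 was level with FAK-/-, with 5 counts and a 95% Poisson interval of 2.04 to 14.7 CPM. FAK-WT exceeded FAK-kd 2.08-fold, with a log2 fold change of 1.06 (SE 0.17, adjusted p = 0.000294), and FAK-/- with a log2 fold change of 0.91 (SE 0.17, adjusted p = 0.00116). The former fell under 2-fold without FAK-WT replicate 2 or FAK-kd replicate 2, with a range of 0.91 to 1.16 over the left-out libraries. Plat, the tissue-type activator, lay at 27.7, 24.9 and 24.7 CPM in the FAK-WT libraries, 19.9, 19.3 and 17.4 in the FAK-/- libraries and 27.4, 27.1 and 28.0 in the FAK-kd libraries. Its FAK-/- values were below all others, by 0.41 (SE 0.10, adjusted p = 0.00647) for FAK-WT and 0.55 (SE 0.09, adjusted p = 0.00108) for FAK-kd over FAK-/-.

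Plaur, the urokinase receptor, was the most abundant of this family, with 39.0, 74.0 and 78.0 CPM in the FAK-WT libraries, 91.0, 92.3 and 111 in the FAK-/- libraries and 87.2, 63.5 and 64.7 in the FAK-kd libraries. FAK-WT replicate 1 was the lowest library, with 31 counts, and FAK-/- was the highest line. The difference between FAK-WT and FAK-/- was −0.47 (SE 0.15, adjusted p = 0.0464). It became −0.37 with an adjusted p of 0.0619 without FAK-WT replicate 1, and −0.32 with 0.0579 without FAK-/- replicate 3. FAK-WT replicates 2 and 3 lay within the FAK-kd range. Over the 9 fits that leave out a library, the adjusted p of FAK-WT over FAK-/- stayed at 0.05 or below in 2. FAK-kd lay below FAK-/- in every library, at −0.45 (SE 0.15, adjusted p = 0.076). That adjusted p was 0.0469 with DESeq2, 0.0228 without FAK-WT replicate 1, 0.0416 without FAK-/- replicate 3 and 0.0378 with GC-content offsets.

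The serpins were close to absent. Serpine2, an inhibitor of thrombin and urokinase, ranged from 0.320 to 1.26 CPM. Serpinb2, which encodes plasminogen activator inhibitor 2, ranged from 0.761 to 1.26 CPM, and Serpinb5, the maspin gene of normal epithelium, from 0 to 0.120 CPM. None of the 3 passed edgeR's test, or DESeq2, which tested 2 of them, in any comparison, and only Serpinb5 in FAK-kd over FAK-/- had an unadjusted p under 0.05. At these levels FAK-WT replicate 1 could not show a difference.

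The wider protease system was examined through 82 further genes, of which 60 had a row. In FAK-WT against FAK-/-, 2 were past both limits in the higher direction and 2 in the lower. Against FAK-kd they were 2 and 1, and in FAK-kd against FAK-/- none and 2. In the latter, none was higher past 2-fold by DESeq2, which tested 32 of the 60, or at an unadjusted p under 0.05. At an adjusted p of 0.05 or below alone, the higher and lower counts were 8 and 7, 6 and 3, and 4 and 6 of 60, beside 8.01% and 9.96%, 7.58% and 10.2%, and 3.97% and 3.88% of all genes. Htra1, a secreted serine protease of the matrix, lay at 40.3, 54.4 and 53.3 CPM in the FAK-WT libraries, 146, 138 and 153 in the FAK-/- libraries and 233, 242 and 245 in the FAK-kd libraries. It was lowest in FAK-WT and highest in FAK-kd with no overlap, with a log2 fold change of −1.48 (SE 0.08, adjusted p = 6.51e-09) over FAK-/- and a log2 fold change of −2.20 (SE 0.08, adjusted p = 1.14e-10) over FAK-kd. Adamts9, another proteoglycan-cutting ADAMTS protease, lay at 15.1, 18.3 and 16.6 CPM in the FAK-WT libraries, 6.92, 6.35 and 6.79 in the FAK-/- libraries and 5.04, 6.83 and 8.11 in the FAK-kd libraries. It was higher in FAK-WT than in FAK-/- with a log2 fold change of 1.36 (SE 0.16, adjusted p = 1.74e-05) and than in FAK-kd with a log2 fold change of 1.37 (SE 0.16, adjusted p = 1.6e-05).

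Tfpi, the inhibitor of tissue factor, was high in FAK-WT and lowest in FAK-kd. It lay at 6.29, 13.2 and 13.4 CPM in the FAK-WT libraries, 5.84, 5.84 and 4.93 in the FAK-/- libraries and 0.690, 1.83 and 0.615 in the FAK-kd libraries. The log2 fold changes were 1.18 (SE 0.28, adjusted p = 0.00781) for FAK-WT over FAK-/-, 3.58 (SE 0.32, adjusted p = 1.14e-06) over FAK-kd, and −2.40 (SE 0.31, adjusted p = 0.000135) for FAK-kd over FAK-/-. The remaining calls were of Hpse, the heparanase gene, which was lower in FAK-WT and in FAK-kd than in FAK-/- and below 1 CPM in all libraries. In FAK-kd over FAK-/-, where edgeR called these 2 genes, Tfpi and Hpse, DESeq2 tested 32 of the 60 genes and called 1. In the list of the plasminogen system, 6 of 13 genes were higher in FAK-WT than in FAK-/- at an adjusted p of 0.05 or below and 2 were lower, beside 8.01% and 9.96% of all genes. Some are named after their values were seen. Among the higher ones were Tfpi, Serpinb6a, Eno1 and the pair Anxa2 and S100a10, which form a plasminogen receptor, and the lower ones were the coagulation genes F3 and Thbd. S100a10 lay at 600.5, 631 and 677 CPM in the FAK-WT libraries, 469, 467 and 393 in the FAK-/- libraries and 555, 491 and 484 in the FAK-kd libraries. Its FAK-WT libraries lay above all others, with a log2 fold change of 0.53 (SE 0.08, adjusted p = 0.000336) over FAK-/-. Of the further MMP and TIMP genes (6 with a row) and ADAM genes (10 with a row), none passed edgeR's test in any comparison or had an unadjusted p under 0.05. None passed DESeq2 either, but it tested only 1 of the 6 MMP and TIMP genes. Of the 10 ADAM genes it tested 7, 7 and 4 in FAK-WT over FAK-/-, FAK-WT over FAK-kd and FAK-kd over FAK-/-.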

How the data were processed

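RNA from 9 cultures of 3 mouse lines was sequenced as paired-end, unstranded poly(A) libraries on an Illumina HiSeq. The replicates are described as biological, and p-values measure the spread between libraries of a line. The authors estimated transcript abundance with kallisto 0.43.1, summed it to genes with tximport, removed genes without counts and tested with DESeq2. The transcriptome release is not given in the sources used here. The deposited values are expected counts (estimated counts) per gene, which were used as whole numbers.

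All 19044 genes were fitted with edgeR 4.0.16 in R 4.3.3 (TMM, quasi-likelihood, 1 fit of all 9 libraries, no filter), with Benjamini-Hochberg adjustment and the study's limits of an adjusted p of 0.05 and 2-fold. The SE is the log2 fold change divided by the square root of its F statistic. The fit was tested on simulated data. CPM were TMM-normalised, and CPM per kb were divided by the median length of protein-coding transcripts (GENCODE M21, GRCm38). Depth and floors of 3 counts are given with the results. Gene symbols matched 18856 identifiers.

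The genes and lists were chosen with earlier results of these data known. Genes past both limits with a mean of at least 1 CPM in a line were described in full, then the highest gene of each family and genes whose call changes without FAK-WT replicate 1. Among other protease genes, up to 8 past both limits were named. Further genes were given after their values were seen. Alternatives were DESeq2 1.42.0, its size factors, a low-count filter, fits of 2 groups, a replicate block, left-out libraries, no fold limit and GC-content offsets. Replicate numbers did not pair libraries: the mean correlation of deviations was −0.014 over 9 same-numbered pairs (range −0.0633 to 0.0577) and 0.00655 over 18 others.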

Additional observations from a re-analysis of the deposited data

Results flagged for a closer look

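For 3 genes the effect of wild-type FAK over FAK-/- differed from the effect of kinase-deficient FAK over FAK-/-, tested as FAK-WT against FAK-kd in edgeR with adjustment over all genes. For Timp3 the FAK-WT effect was lower by a log2 difference of −5.70 (3 libraries a line, no overlap), and the effects had opposite signs, −2.75 and 2.95. For Adamts10 the difference was −2.03, with effects of −3.13 and −1.09 of the same sign. For Plau it was 1.06, with effects of 0.91 and −0.15, and it fell under 2-fold when FAK-WT replicate 2 or FAK-kd replicate 2 was left out.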

How the results depend on the processing

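With no limit on the fold, 16, 11 and 9 of the 39 genes passed in FAK-WT over FAK-/-, FAK-WT over FAK-kd and FAK-kd over FAK-/-, in place of 6, 3 and 5, and 15, 9 and 10 of the 60 other protease genes, in place of 4, 3 and 2. In FAK-kd over FAK-/-, DESeq2 tested 33 of the 39 genes and 32 of the 60 others, and called 2 and 1. There the calls ranged from 2 to 6 among the 39 genes and from 1 to 2 among the others over the 9 fits that leave out a library. Calls were fewest without FAK-kd replicate 3 (2) and 3 without FAK-kd replicate 2 or FAK-/- replicate 2. Without FAK-kd replicate 1 or 2, 1 other gene was called. With the replicate number as a block, 7, 3 and 4 of the 39 genes passed, and 4, 3 and 2 of the others. The numbers do not pair the libraries. Of 585 recomputed values of 39 single-gene results, 550 kept their direction and side of the threshold, 22 lost the call, 13 gained one and 0 changed sign. These results are pairs of a gene and a comparison, Ptk2 included, and not the 39 genes. Only pairs within the adjusted p limit in the main fit were taken, so the absence of sign changes says little about other pairs. Outside this selection signs did change in FAK-WT over FAK-/-. Adamts6 went from 0.24 to −3.28 without FAK-WT replicate 1, and Mmp13 from −0.63 to 1.10 without FAK-/- replicate 3. The GC-content offsets were chosen after seeing the data. The depth of FAK-WT replicate 1 limits every gene below 3.78 CPM. The causes of the changed counts were not tested.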
